A study of Mus musculus with 18 samples.

Results

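The genes described here are 8 oocyte transcription factors of the mouse, namely Sohlh1, Sohlh2, Figla, Nobox, Lhx8, Tbpl2, Taf4b and Gtf2a1l. They were taken by gene symbol from the TPM table, which lists 28252 genes (in TPM a count is set against the length of its gene, and the values of each library add up to 1000000), and joined by Ensembl identifier to the table of raw read counts of 53715 genes. All 8 were found in both tables. Bulk RNA was sequenced from oocytes of primordial follicles, of primary follicles and of the MII stage (ovulated oocytes arrested in metaphase of the second meiotic division), each from a group labelled sham and a group labelled NTY, with 3 libraries in each of the 6 groups and 18 in all. The labels give the strain of all mice as C57Bl/6j x CBA/J and mark every sample as in vivo. They give no age, and they do not say what NTY stands for or how and when it was given. Microdissected cells were pooled by oocyte stage during RNA extraction, and nothing says whether libraries of a group came from separate animals, so the p-values measure the spread between these libraries only, which may be technical. The labelled protocol describes microdissected and collected oocytes. For the 12 libraries from primordial or primary follicles it was read as laser microdissection and linear amplification. For the 6 MII libraries it was read as Smart-seq II. Between these sets the effects of stage and of library method therefore cannot be told apart. The labels also name a capture kit for coding RNA for the microdissected samples, and its part in the levels and ratios below was not tested.

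SOHLH1 and SOHLH2 are basic helix-loop-helix proteins of germ cells that are needed early, when primordial follicles form and begin to grow. FIGLA, a helix-loop-helix protein that pairs with E proteins, switches on the zona pellucida genes, and the homeobox proteins NOBOX and LHX8 drive genes of the growing oocyte such as Gdf9 and Bmp15. TBPL2, TAF4B and GTF2A1L are germ-cell versions of general factors that place RNA polymerase II at promoters, and TBPL2 takes the place of the TATA-binding protein TBP in growing oocytes.

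Nobox, Sohlh2 and Gtf2a1l were expressed in all 6 MII libraries and Tbpl2 in 5 of them, and these 4 genes were low or at 0 in most microdissected libraries, while Sohlh1 was found almost entirely in the microdissected libraries. Figla was low throughout, Lhx8 was well expressed at all 3 stages, and Taf4b was present at all 3 stages but very uneven between microdissected replicates. Between MII and microdissected oocytes 5 of the 8 genes passed the test, a share close to the 59.5% of all genes tested that did so. The call of Sohlh1 held in 14 of 23 alternatives. Sohlh1, Sohlh2, Tbpl2 and Gtf2a1l entered this test through the set where they are higher, so their calls are no support for a direction. Between NTY and sham 0 of the 5 genes tested passed in primordial follicles, 0 of 5 in primary follicles and 0 of 6 in MII oocytes. Of all genes tested, 0.0095%, 0% and 0% did so.

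The promoters of these 5 genes, Sohlh1 with its less stable call among them, are printed here so that their shared and differing motifs can be seen. Each run is the stretch before the RefSeq start on GRCm38.p6, up to 250 bases long and cut where the outermost GENCODE transcript begins, written 5′ to 3′ on the strand of the gene. Capitals mark E-boxes (CANNTG, the site class of helix-loop-helix proteins, which reads the same on both strands).
Sohlh1 (chr2:25847249-25847498, minus strand): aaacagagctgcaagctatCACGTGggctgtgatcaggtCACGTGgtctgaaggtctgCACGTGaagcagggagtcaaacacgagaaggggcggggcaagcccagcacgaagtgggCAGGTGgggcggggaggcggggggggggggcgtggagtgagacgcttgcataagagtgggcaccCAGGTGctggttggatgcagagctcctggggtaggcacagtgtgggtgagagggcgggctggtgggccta
Sohlh2 (chr3:55181794-55182027, plus strand): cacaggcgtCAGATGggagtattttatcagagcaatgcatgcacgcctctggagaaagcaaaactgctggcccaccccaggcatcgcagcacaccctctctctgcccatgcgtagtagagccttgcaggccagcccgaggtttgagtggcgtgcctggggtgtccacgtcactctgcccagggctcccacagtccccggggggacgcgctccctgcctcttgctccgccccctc
Nobox (chr6:43309555-43309804, minus strand): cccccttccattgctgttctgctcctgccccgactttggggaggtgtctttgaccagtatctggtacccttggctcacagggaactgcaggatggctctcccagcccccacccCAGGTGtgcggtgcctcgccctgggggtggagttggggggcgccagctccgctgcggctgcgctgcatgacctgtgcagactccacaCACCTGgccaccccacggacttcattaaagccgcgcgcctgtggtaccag
Tbpl2 (chr2:24096596-24096845, minus strand): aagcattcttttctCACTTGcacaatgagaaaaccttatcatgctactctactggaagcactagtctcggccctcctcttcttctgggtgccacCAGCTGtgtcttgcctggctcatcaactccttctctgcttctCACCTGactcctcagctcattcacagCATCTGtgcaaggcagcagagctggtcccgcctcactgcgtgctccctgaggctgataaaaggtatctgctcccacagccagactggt
Gtf2a1l (chr17:88668410-88668659, plus strand): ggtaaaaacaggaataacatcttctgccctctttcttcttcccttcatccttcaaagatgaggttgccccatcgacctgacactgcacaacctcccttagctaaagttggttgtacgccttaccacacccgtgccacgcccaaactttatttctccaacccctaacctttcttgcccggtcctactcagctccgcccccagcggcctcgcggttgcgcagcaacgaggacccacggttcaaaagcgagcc
The Sohlh1 stretch held 5 E-boxes, the Tbpl2 stretch 4, the Nobox stretch 2, the Sohlh2 stretch 1 and the Gtf2a1l stretch 0. Counted over windows of 300 bases (250 before the start and 50 after it), 5 of the 7 member promoters in the RefSeq table held an E-box, against 72.3% of all 32851 promoters in that table. Of 19 promoters found for a list of 25 oocyte genes, 16 held one. TAATTG, the core site bound by NOBOX, was searched on both strands and can overlap an E-box only in part. It was in 0 of the 7 member windows, in 2 of the 19 and in 8.0% of all promoters. A match is a description of letters, not a bound site, and a missing match says nothing about the factor.

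The total count ranged from 15149564 to 29205503 in the 12 microdissected libraries and from 8652089 to 9978830 in the 6 MII libraries. A count of 3, taken here as the floor of detection, corresponded to 0.103 to 0.198 CPM (counts per 1000000) in the former and 0.301 to 0.347 CPM in the latter. This floor allows for counting error alone, because reads copied by PCR do not stand for separate molecules. The 8 oocyte markers summed to 5908 to 8028 CPM in MII oocytes and to 1.93 to 1335 CPM in the microdissected libraries. The lowest value was that of primordial NTY replicate 3, where 4 of the 8 markers exceeded 3 counts, so this library goes against its label as oocytes. Many, but not all, of the estimates that involve it are given below also without it. In the microdissected libraries 14 granulosa markers summed to 779 to 5010 CPM and 6 stroma markers to 1376 to 17910 CPM, against 98.5 to 188 and 0 to 2.91 CPM in MII oocytes. Of the 14 granulosa markers, Foxl2, Amhr2, Wt1 and Fst were at 0 in all 6 MII libraries, and Cyp19a1 (median 51.1 CPM), Esr2 (52.1 CPM), Kitl (27 to 164 counts) and Nr5a2 (129 to 316 counts) exceeded 3 counts in all 6. Inhba did so in 5 MII libraries, Inha in 4, Fshr and Gja1 in 3, Hsd17b1 in 1 and Amh in 0. The part of somatic RNA in the levels below was not tested. In bulk samples, fewer oocytes and less RNA per oocyte cannot be told apart.

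Among the early helix-loop-helix factors, Sohlh1 (ENSMUSG00000059625, chromosome 2 from 25842995 to 25847248 on GRCm38, minus strand) was low. Its counts in replicates 1, 2 and 3 were 0, 72 and 29 in primordial sham, 5, 0 and 0 in primordial NTY, 8, 5 and 0 in primary sham and 45, 1 and 33 in primary NTY. In MII sham they were 0, 3 and 0, and in MII NTY 0, 0 and 0. Sohlh1 thus exceeded 3 counts in 7 of 12 microdissected libraries, with both treatments and both stages among them, and in 0 of 6 MII libraries. On the TPM scale its highest library, primordial sham replicate 2, was at 6.56 TPM.

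Its partner Sohlh2 (ENSMUSG00000027794, chromosome 3 from 55182028 to 55209957, plus strand) was placed the other way round. The counts of Sohlh2 were 0, 31 and 6 in primordial sham, 0, 4 and 0 in primordial NTY, 4, 16 and 0 in primary sham and 0, 0 and 5 in primary NTY. In MII oocytes they were 148, 236 and 160 in sham and 177, 270 and 191 in NTY. All 6 MII libraries lay above all 12 microdissected libraries, at 14.8 to 32.9 TPM against 0 to 1.54 TPM. Within MII oocytes the sham libraries (21.3 ± 6.78 TPM, SD, n = 3) and the NTY libraries (26.2 ± 5.86 TPM, SD, n = 3) overlapped.

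Figla (ENSMUSG00000030001, chromosome 6 from 86016171 to 86020996, plus strand) stayed near the floor at every stage. It had 8, 37 and 12 counts in primordial sham, 17, 2 and 0 in primordial NTY, 15, 1 and 5 in primary sham and 0, 11 and 10 in primary NTY. In MII sham it had 2, 10 and 5 counts and in MII NTY 33, 0 and 2. The highest value was 11.5 TPM in MII NTY replicate 1, and every neighbouring pair of groups in the order of medians overlapped. Primordial sham was the only group of the 6 in which all 3 libraries exceeded 3 counts of Figla.

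Nobox (ENSMUSG00000029736, chromosome 6 from 43303674 to 43309554, minus strand) was detected above 3 counts in all 18 libraries. Its levels were 1.05, 11.8 and 2.08 TPM in primordial sham, 3.04, 4.13 and 1.2 TPM in primordial NTY, 3.74, 2.04 and 3.89 TPM in primary sham and 1.81, 7.30 and 9.12 TPM in primary NTY. In MII oocytes they were 70.7, 268 and 184 TPM in sham and 238, 230 and 151 TPM in NTY. The lowest MII library was thus above the highest microdissected library, and the 4 microdissected groups overlapped one another. Nobox was the highest of the 8 genes in 6 of 6 MII libraries, where its median of 207 TPM ranked 657 among 15188 genes with a median above 0.

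Lhx8 (ENSMUSG00000096225, chromosome 3 from 154306294 to 154330659, minus strand) had the highest median TPM of the 8 genes over the microdissected libraries. It was at 36.1, 17.1 and 79.9 TPM in primordial sham, 33.1, 68.5 and 0.150 TPM in primordial NTY, 84.2, 39.3 and 42.3 TPM in primary sham and 67.9, 18.6 and 69.8 TPM in primary NTY. In MII oocytes it was at 21.7, 47.4 and 30.8 TPM in sham and 12.6, 48.3 and 12.6 TPM in NTY. Lhx8 was the highest of the 8 genes in 9 of 12 microdissected libraries, and its median there (40.8 TPM) ranked 1931 among 10262 genes with a median above 0. The low value in primordial NTY replicate 3 rested on 3 counts, in the library short of oocyte markers. In the other 11 microdissected libraries the range was 17.1 to 84.2 TPM, and it overlapped the MII range of 12.6 to 48.3 TPM. Every neighbouring pair of groups overlapped for Lhx8.

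**Figure D1:**
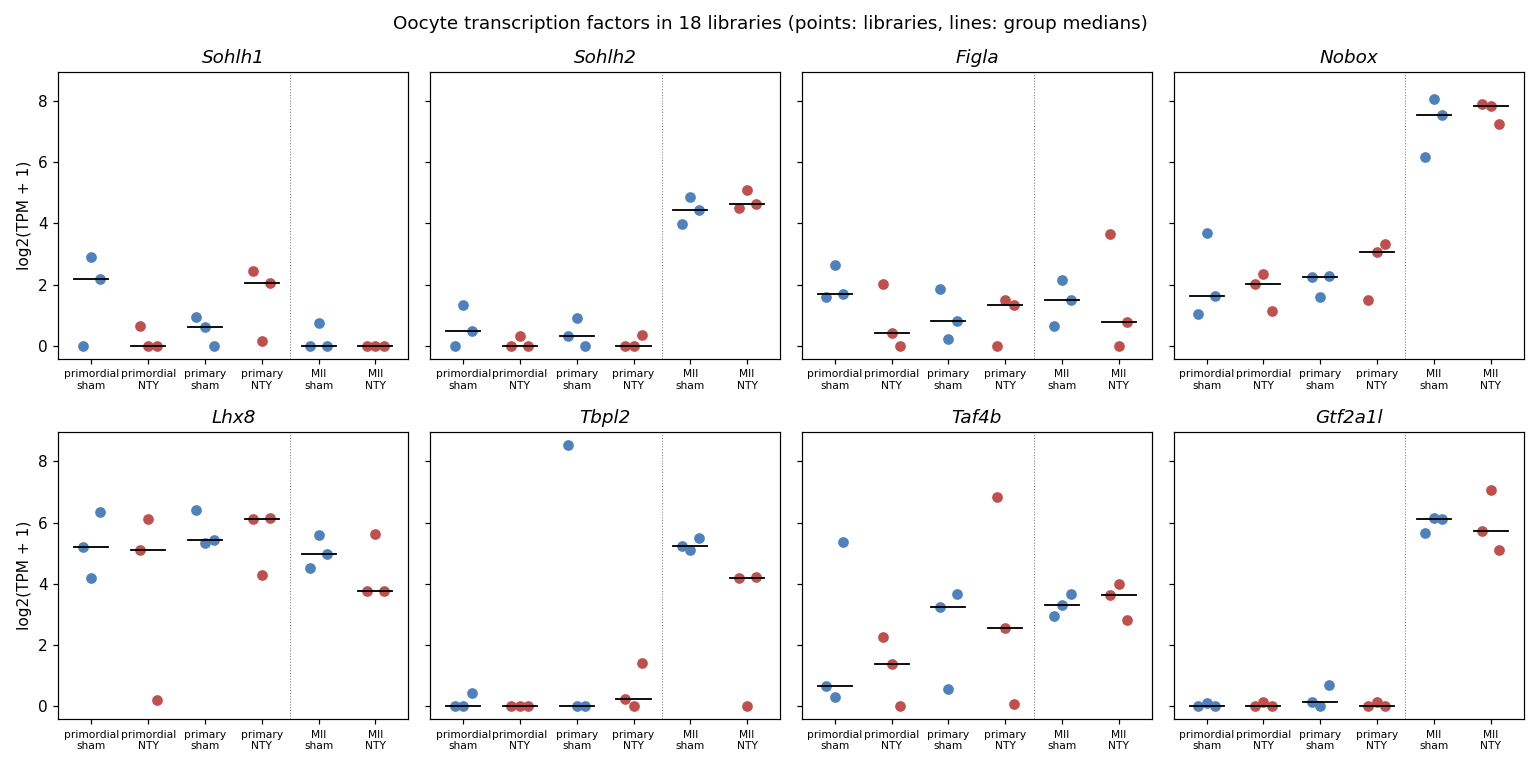
Level of each gene as log2(TPM + 1) (vertical axis) in the 6 groups (horizontal axis), with a point for each of the 18 libraries (blue for sham, red for NTY) and a line at the median of each group. The dotted line parts microdissected from MII libraries, and Nobox, Sohlh2 and Gtf2a1l are higher in every MII library than in any microdissected library, while the microdissected points of Taf4b and Tbpl2 spread from 0 to 114 and 370 TPM.

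Of the germ-cell versions of general factors, Tbpl2 (ENSMUSG00000061809, chromosome 2 from 24071721 to 24096595, minus strand) was found in few microdissected libraries. Its counts were 0, 0 and 3 in primordial sham, 0, 0 and 0 in primordial NTY, 3522, 0 and 0 in primary sham and 2, 0 and 18 in primary NTY. Primary sham replicate 1 stood alone at 370 TPM, the highest value of any of the 8 genes in any library, while the other 11 microdissected libraries lay between 0 and 1.63 TPM. In MII oocytes Tbpl2 was at 37.1, 33.8 and 43.8 TPM in sham and at 17.4, 0 and 17.5 TPM in NTY. The lowest MII sham library was above the highest MII NTY library, so these 2 groups did not overlap, as was the case for 7.56% of 12128 genes tested.

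Taf4b (ENSMUSG00000054321), a subunit of the TBP-bearing complex TFIID made in gonads, lies on chromosome 18 from 14783245 to 14900359 on the plus strand, and it differed widely between replicates. Its counts were 14, 10 and 1327 in primordial sham, 129, 59 and 0 in primordial NTY, 300, 18 and 481 in primary sham and 4676, 177 and 2 in primary NTY. In the MII libraries they were 147, 163 and 198 in sham and 199, 267 and 105 in NTY. The microdissected libraries thus ran from 0 to 114 TPM, around a much narrower MII range of 6.01 to 14.9 TPM. GENCODE M21 places a processed pseudogene on the same strand inside this gene, so its reads could be shared there. The other 7 genes have no other annotated gene in their span.

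Gtf2a1l (ENSMUSG00000024154, chromosome 17 from 88668660 to 88715152, plus strand), the germ-cell form of the large TFIIA subunit, was nearly absent from microdissected oocytes. It had 0, 1 and 0 counts in primordial sham, 0, 1 and 0 in primordial NTY, 1, 0 and 8 in primary sham and 0, 1 and 0 in primary NTY. In MII oocytes it had 337, 396 and 362 counts in sham and 287, 744 and 184 in NTY. All MII libraries were above all microdissected ones, at 33.4 to 132 TPM against 0 to 0.614 TPM. The MII sham libraries lay within the range of the MII NTY libraries.

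Replicates of a microdissected group often disagreed on whether a gene was present at all. For the 8 genes there were 11 pairs of gene and group among microdissected libraries in which a library reached 100 counts, and in 4 of these another replicate had 3 counts or fewer (Tbpl2 in primary sham, Lhx8 and Taf4b in primordial NTY, and Taf4b in primary NTY). Over all genes the share was 44.9% of 31315 such pairs. In MII oocytes 0 of 11 pairs did so, against 4.30% of 16135 pairs over all genes. The cut of 100 counts was not scaled to the lower MII totals. Tbpl2 in MII NTY, at 82, 0 and 82 counts, fell under it and was not among these pairs. Among microdissected libraries, without primordial NTY replicate 3 the count was 2 of 11, against 36.1% over all genes, since the Lhx8 and Taf4b pairs in primordial NTY came from that library. These few pairs are given as a description.

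The first question of the design was whether NTY changed these genes at each stage. The counts were tested by edgeR (quasi-likelihood test) with TMM normalization and Benjamini-Hochberg adjustment over all genes tested, and a gene was called at an adjusted p under 0.05. Of the 8 genes, 5 passed the filter on low counts in the fit of the 12 microdissected libraries (Sohlh2, Tbpl2 and Gtf2a1l did not) and 6 in the fit of the 6 MII libraries (Figla and Sohlh1 did not). Replicates spread more among microdissected libraries, with a common dispersion (squared coefficient of variation) of 3.59, than among MII libraries, with 0.542.

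In oocytes from primordial follicles 0 of 5 genes were called for NTY against sham, where 0.0095% of 10522 genes were. The log2 fold change was -4.08 for Sohlh1 (SE 2.74, adjusted p = 0.624 by edgeR), -3.05 for Taf4b (SE 3.07, 0.795), -1.54 for Figla (SE 2.35, 0.896), -0.88 for Nobox (SE 2.55, 0.960) and -0.59 for Lhx8 (SE 2.64, 0.981). All 5 estimates were negative, beside a median of 0.12 over all genes tested, and the 95% interval of each spanned 0. The sign depended on single libraries, since Nobox was at 0.80 without sham replicate 2, and Lhx8 at 0.18 and Taf4b at 2.06 without sham replicate 3. Without primordial NTY replicate 3, the library short of oocyte markers, Lhx8 was at -0.09, Nobox at -0.71, Figla at -1.02, Taf4b at -2.49 and Sohlh1 at -3.55, and again none was called. None of the 5 had groups without overlap in TPM, against 7.98% of 10502 genes tested. Of the list of 25 oocyte genes, 0 were called and 1 had a positive estimate (median -1.96, and -1.49 without that library), where 51.7% of all genes tested were positive. Cell markers are set beside these estimates. Zp1, Zp2, Zp3, Gdf9, Bmp15 and Kit are among both the 25 oocyte genes and the oocyte markers, so these lists are not separate readings. Of 12 granulosa markers tested 10 were positive (median 2.05) and of 8 oocyte markers 1 was (median -2.06), with 0 called in either list. Their medians were 2.40 and -1.57 without primordial NTY replicate 3. Of 6 stroma markers 5 were positive (median 1.16) and 0 called, but only 2 were positive without that library (median -0.15). The granulosa markers summed to 779, 869 and 3309 CPM in primordial sham and to 2095, 5010 and 3994 CPM in primordial NTY, and their part in the estimates was not tested.

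In oocytes from primary follicles 0 of 5 genes were called as well, where 0% of 10522 genes were and 858 had an unadjusted p under 0.05. All 5 estimates were positive here, beside a median of -0.10 over all genes. They were 3.14 for Taf4b (SE 3.08, adjusted p = 0.995 by edgeR), 2.84 for Sohlh1 (SE 2.58, 0.975), 1.44 for Nobox (SE 2.58, 1), 0.62 for Figla (SE 2.30, 1) and 0.40 for Lhx8 (SE 2.63, 1). The Taf4b estimate rested on primary NTY replicate 1 with its 4676 counts, and it was -0.73 without that library. None of the 5 genes had groups without overlap in TPM, against 14.9% of 10502 genes tested. Of the 25 oocyte genes, 0 were called and 11 were positive. Of 12 granulosa markers tested 4 were positive (median -0.92), of 6 stroma markers 5 (median 1.44) and of 8 oocyte markers 4 (median -0.06). In these marker lists 0 were called, and their part in the estimates was not tested.

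In MII oocytes the spread was smaller and 0 of 6 genes were called, where 0% of 12209 genes were and 280 had an unadjusted p under 0.05. Tbpl2 had the largest estimate, with a log2 fold change of -1.63 (SE 1.23, 95% interval -4.41 to 1.16, unadjusted p = 0.219, adjusted p = 1.00 by edgeR) for NTY against sham. NTY was lower than every sham library in 3 of 3 libraries, the separation described above, and Tbpl2 was the 1 of the 6 members tested that showed it. Without NTY replicate 2, which had 0 counts at a total of 9337884, the estimate was -1.05. The number of genes with a count also parted these groups, at 15442, 18239 and 16142 in MII sham and 13608, 12926 and 12782 in MII NTY. Its part in the Tbpl2 values was not tested. The other estimates were -0.44 for Lhx8 (SE 0.56), 0.35 for Nobox (SE 0.38), 0.35 for Sohlh2 (SE 0.43), 0.23 for Taf4b (SE 0.48) and 0.19 for Gtf2a1l (SE 0.47). For Nobox the 95% interval of the difference ran from -0.50 to 1.2, for Sohlh2 from -0.62 to 1.32 and for Gtf2a1l from -0.88 to 1.26, so a log2 change of either sign within these bounds cannot be told from none.

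**Figure D2:**
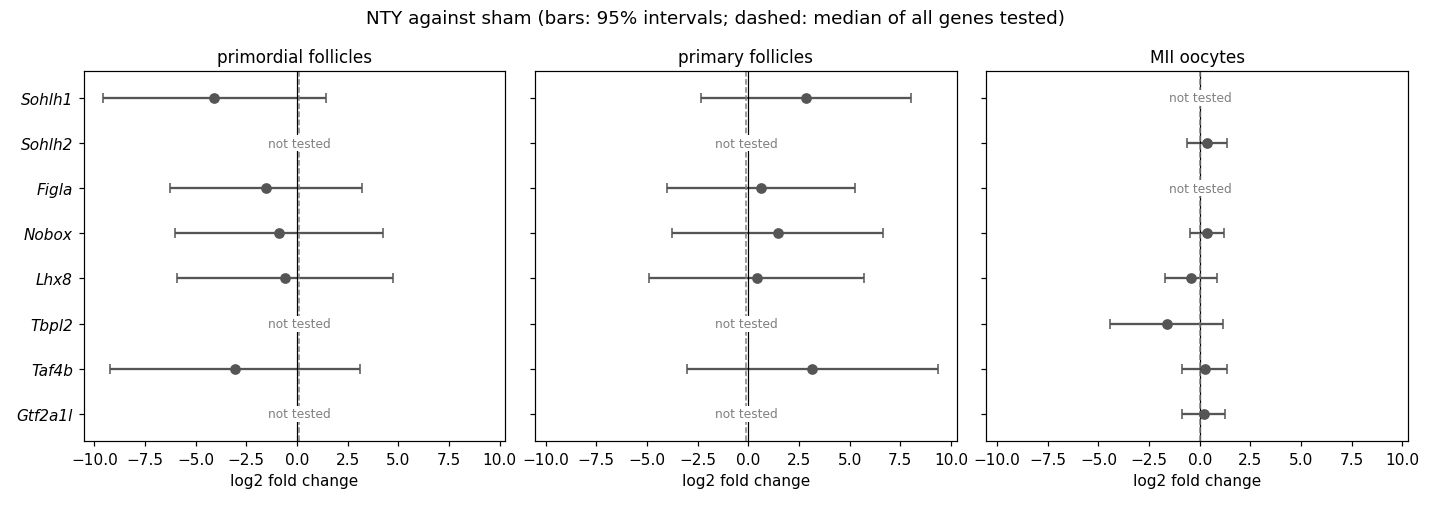
Log2 fold change of NTY against sham (horizontal axis) for each gene (vertical axis) in primordial follicles, primary follicles and MII oocytes. Bars show the approximate 95% interval derived from the edgeR F statistic, and a dashed line the median of all genes tested. Every interval spans 0, and the intervals of MII oocytes are narrower than those of microdissected oocytes, with Tbpl2 the widest among them.

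The next question was whether the genes differed between primary and primordial follicles. Averaged over the treatments, 0 of 5 genes were called, where 0% of 10522 genes were and 1132 had an unadjusted p under 0.05. The log2 fold change of primary against primordial was 1.71 for Taf4b (SE 2.06, adjusted p = 0.893 by edgeR), 0.51 for Lhx8 (SE 1.86, 0.999), 0.39 for Sohlh1 (SE 1.65, 1.00), 0.23 for Nobox (SE 1.79, 1.00) and -0.77 for Figla (SE 1.64, 0.979). Without primordial NTY replicate 3 these were 1.37 for Taf4b, 0.18 for Lhx8, 0.09 for Sohlh1, 0.11 for Nobox and -1.08 for Figla. The groups overlapped in TPM for all 5 genes, as did those of all but 0.133% of 10502 genes tested. Of the 25 oocyte genes, 0 were called and 21 were positive (median 0.61), where 56.6% of all genes tested were positive and their median was 0.29. Without primordial NTY replicate 3 the median of the oocyte genes was 0.34, beside 0.28 over all genes. Within sham 0 of 5 members were called, where 0.0095% of genes were, and within NTY 0 of 5, where 0% were. The estimate was 3.85 for Sohlh1 within NTY and -3.07 within sham, and 4.81 for Taf4b within NTY and -1.39 within sham. Without that library the estimates within NTY were 3.31 for Sohlh1 and 4.23 for Taf4b.

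The difference of the NTY effect between primary and primordial follicles was tested directly. Of the 5 genes 0 were called, where 0.0095% of 10522 genes were. The difference was 6.93 for Sohlh1 on the log2 scale (SE 3.75, unadjusted p = 0.0714, adjusted p = 0.491 by edgeR), 6.19 for Taf4b (SE 4.35, 0.649), 2.32 for Nobox (SE 3.63, 0.924), 2.16 for Figla (SE 3.29, 0.919) and 0.99 for Lhx8 (SE 3.73, 0.984). All 5 were positive, beside a median of -0.56 over all genes, and the 2 contrasts that make up each difference were given above. Without primordial NTY replicate 3 the value was 6.43 for Sohlh1, 5.71 for Taf4b, 2.25 for Nobox, 1.76 for Figla and 0.55 for Lhx8. The opposite signs of the estimates at the 2 stages are therefore not shown to differ. Here 2 of 12 granulosa markers tested were positive (median -4.37) and 7 of 8 oocyte markers were (median 1.99), with 0 called (medians -4.38 and 1.56 without that library), and their part was not tested.

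The germ-cell versions were set against their widely expressed counterparts within each library, as a log2 ratio of TPM + 1. The added 1 sets the ratio where a gene is near 0 TPM. In MII sham the ratio of Tbpl2 to Tbp was 0.75, 0.25 and 0.85, and in MII NTY it was -0.18, -5.28 and -0.20. Tbpl2 was thus above Tbp in 3 of 3 sham and 0 of 3 NTY libraries of MII oocytes. This rests on the same Tbpl2 values as the separation in TPM, the value of -5.28 comes from 0 counts of Tbpl2, and the ratio was not tested. Tbp itself, which binds the TATA box in other cells, was at 21.6, 28.3 and 23.9 TPM in MII sham and at 19.8, 37.8 and 20.3 TPM in MII NTY. In the microdissected libraries Tbpl2 was above Tbp in 2 of 12, of which primary sham replicate 1 (370 against 53.2 TPM) was well above the floor.

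Taf4b was below Taf4 in all 6 MII libraries, with ratios of -2.80, -2.57 and -2.23 in sham and -2.15, -1.67 and -2.73 in NTY. In microdissected oocytes Taf4b was above Taf4 in 4 of 12 libraries, and the ratio ran from -6.12 to 1.88. Primary NTY replicate 1 held 114 TPM of Taf4b and 30.2 TPM of Taf4, whereas primary sham replicate 2 held 0.462 and 101 TPM. Gtf2a1l was below Gtf2a1 in all 18 libraries. Its ratio was -2.12, -2.10 and -1.85 in MII sham and -1.52, -0.71 and -3.59 in MII NTY, and the median over the microdissected libraries was -6.55.

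**Figure D3:**
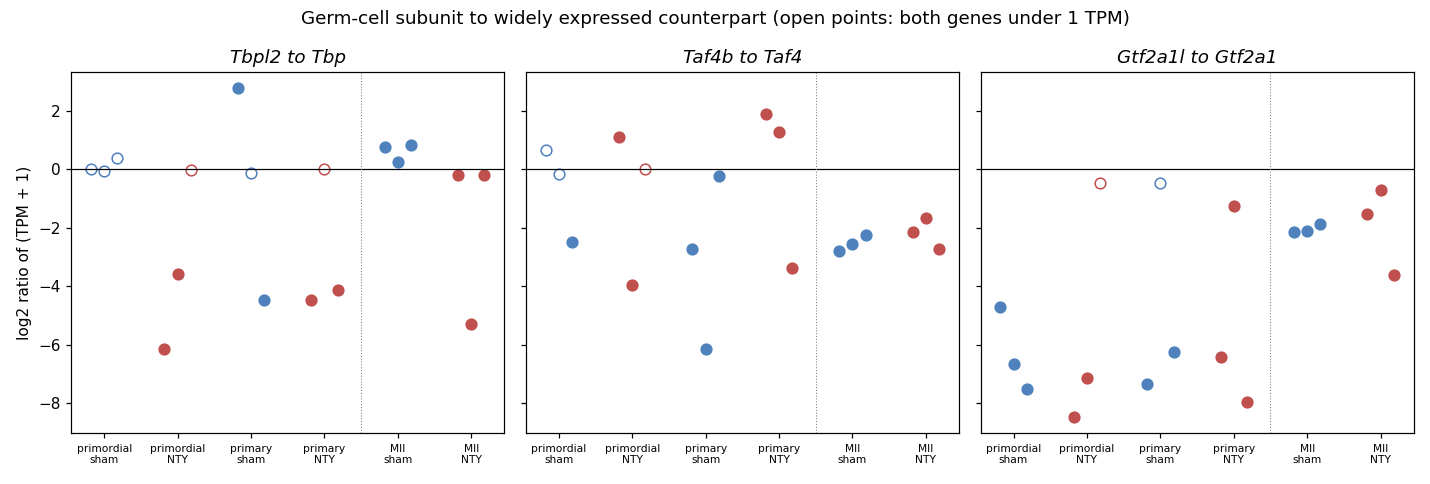
Log2 ratio of TPM + 1 of each germ-cell factor to its counterpart (vertical axis) in the 6 groups (horizontal axis), with a point for each library (blue for sham, red for NTY, open where both genes were under 1 TPM). The 3 MII sham libraries lie above 0 and the 3 MII NTY libraries below 0 for Tbpl2 to Tbp, and every point of Gtf2a1l to Gtf2a1 lies below 0.

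MII and microdissected oocytes were then compared over all 18 libraries. This contrast sets the levels side by side, since stage, library method and the share of somatic RNA change together in it and cannot be told apart. It called 59.5% of 15929 genes, 42.3% higher and 17.2% lower in MII, so a call by itself sets no gene apart. Of the markers, 3 of 8 for oocytes were called higher in MII and 0 lower, 3 of 14 for granulosa cells higher and 7 lower, and 6 of 6 for stroma lower. Of the 8 genes 5 were called, 4 higher and 1 lower. Sohlh2, Tbpl2 and Gtf2a1l had not passed the filter in the microdissected libraries alone, nor Sohlh1 in the MII libraries alone. These 4 genes thus entered the fit through the set where they are higher, and the counts are no support for a direction. Figla had passed in the microdissected libraries alone. All 3 of Nobox, Sohlh2 and Gtf2a1l were higher in every MII library than in any microdissected one, as were 22.4% of 15822 genes tested, and 0 of the 8 were lower without overlap, as were 2.71%.

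Gtf2a1l had the largest log2 fold change, 9.46 (SE 1.26, adjusted p = 3.4e-05 by edgeR), followed by Sohlh2 with 6.19 (SE 1.26, adjusted p = 0.000516), Nobox with 4.91 (SE 0.87, adjusted p = 0.000148) and Tbpl2 with 4.68 (SE 1.61, adjusted p = 0.0196). Sohlh1 was lower in MII oocytes, with -4.29 (SE 1.63, adjusted p = 0.0322), a call lost under 9 of 23 alternatives, among them RLE normalization (0.0999) and DESeq2 (0.303). The estimates of Figla (0.34, SE 1.10, adjusted p = 0.841), Taf4b (-0.41, SE 1.35, 0.844) and Lhx8 (-1.24, SE 1.00, 0.299) did not pass. The median over all genes tested was 1.64, and RLE normalization moved it to 3.09. Relative to that median Gtf2a1l was at 7.82, Sohlh2 at 4.55, Nobox at 3.27 and Tbpl2 at 3.03, and Lhx8 at -2.89 (7.79, 4.72, 3.22, 3.15 and -2.82 under RLE). The sign of the plain estimate of Lhx8 and Taf4b turned positive under RLE, at 0.27 and 1.15. Without primordial NTY replicate 3 the same 5 genes were called, with Gtf2a1l at 9.38 and Lhx8 at -1.39. The value of Tbpl2 was lowered by primary sham replicate 1 and was 7.81 without it.

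**Figure D4:**
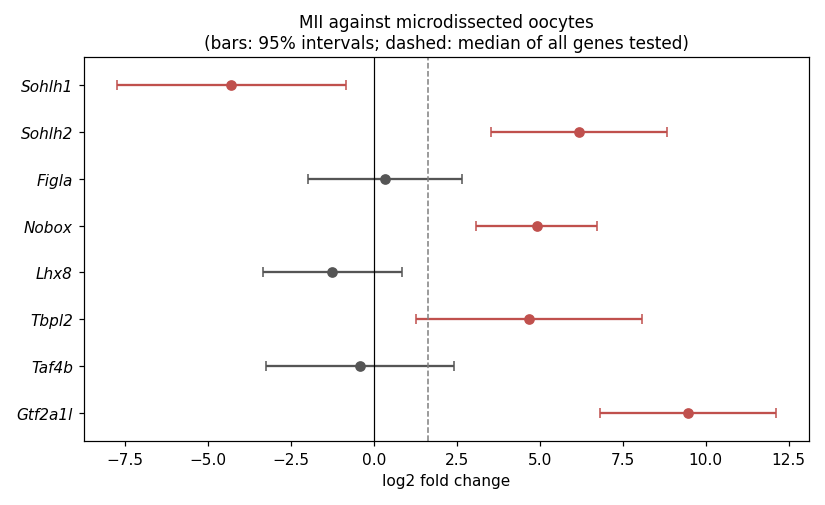
Log2 fold change of MII against microdissected oocytes (horizontal axis) for each gene (vertical axis), with red for an adjusted p under 0.05. Bars show the approximate 95% interval derived from the edgeR F statistic, and a dashed line the median of all genes tested (1.64). Gtf2a1l, Sohlh2 and Nobox lie to the right of the dashed line with their whole interval, and Sohlh1 lies to the left of 0.

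Genes that depend on or accompany these factors in oocytes were read from a list of 25. The list was chosen with earlier results of these data known, so its counts are a description. Zp1, Zp2, Zp3, Gdf9, Bmp15 and Kit are also among the oocyte markers. In MII against microdissected oocytes 18 of 25 were higher and 0 lower, where 42.3% of all genes tested were higher and 17.2% lower (median log2 fold change 3.79, against 1.64 over all genes). H1f8, the linker histone of oocytes, was higher by 12.46 and Dppa3, a maternal-effect gene, by 10.40. The NOBOX targets Gdf9 and Bmp15, growth factors of the oocyte, were higher by 5.77 (adjusted p = 0.000321 by edgeR) and 8.11 (adjusted p = 8.4e-05). Of the zona pellucida genes that FIGLA switches on, Zp3 was higher by 2.72 (adjusted p = 0.0201), while Zp2 (1.62, adjusted p = 0.107) and Zp1 (-0.27, adjusted p = 0.892) did not pass. Kit, the receptor through which granulosa cells signal to the oocyte, was at -1.46 (adjusted p = 0.296).

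Of 18 general subunits of TFIID and TFIIA, 8 were higher and 2 lower in MII (median 2.26), close to the shares of 42.3% higher and 17.2% lower over all genes. Taf13 was higher by 12.09, Taf3 by 7.79 and Taf12 by 5.99, and Taf1, the largest subunit of TFIID, was lower at -5.06 (adjusted p = 0.00138 by edgeR), as was Taf10 at -2.60 (adjusted p = 0.0425). The counterparts Tbp (2.02, adjusted p = 0.177), Taf4 (0.27, adjusted p = 0.914) and Gtf2a1 (0.66, adjusted p = 0.605) did not pass, whereas Gtf2a2, the small TFIIA subunit, was higher by 3.49 (adjusted p = 0.0104). For NTY against sham 0 of these subunits were called at any stage.

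How alike the 8 genes were was described over the 12 microdissected libraries by Pearson correlation of log2(CPM + 1). These points share the library method, and part of the correlation can come from which transcripts were kept in a library. Among the 5 genes that passed the filter, the highest value was 0.55 between Nobox and Figla, followed by 0.48 between Lhx8 and Taf4b, and the lowest was -0.26 between Nobox and Taf4b. Without primordial NTY replicate 3 these were 0.51, 0.43 and -0.37 over 11 libraries, and the lowest was -0.58 between Figla and Lhx8 (0.10 with that library). Srpr (0.95) and Phf13 (0.95) were among the genes most like Lhx8, and without primordial NTY replicate 3 they fell to 0.71 and 0.79. Those most like Nobox were Scg3 (0.92), Adgrv1 (0.91) and Bhlhb9 (0.90), those most like Figla were Ube3c (0.84), Sgsm1 (0.82) and Xdh (0.82), those most like Sohlh1 were Tgfbr2 (0.93), Stx17 (0.91) and Slit2 (0.91), and those most like Taf4b were Pear1 (0.97), Eif5a2 (0.95) and Lhpp (0.90). Each was picked from 10522 genes over 12 libraries, and for the 4 genes other than Lhx8 the values without primordial NTY replicate 3 lay between 0.78 and 0.97.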

How the data were processed

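RNA was sequenced from 18 samples of mouse oocytes, grouped by stage and treatment from their labels, with replicate numbers from the titles. Raw counts per gene (whole numbers) and a second table of TPM values were deposited by the authors, and the gene lengths behind the latter are not given in the sources used here. The submitters' processing notes name Trim Galore 0.4.1, TopHat2, featureCounts and mm10. Whether reads were counted by strand, and how reads matching several genes were handled, is not given in the sources used here. Symbols came from the deposited TPM table, coordinates from GENCODE M21 (GRCm38) and promoters from RefSeq on GRCm38.p6.

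Counts were tested with edgeR 4.0.16 in R 4.3.3 (robust quasi-likelihood, TMM, filterByExpr by group). Microdissected libraries and MII libraries were fitted apart, and all 18 together only for MII against microdissected. Alternatives were RLE normalization, any count as the filter, DESeq2 1.42.0 without its Cook or independent filter, limma 3.58.1 on log2(TPM + 1) where 3 or more libraries reached 1 TPM, a replicate block, only the groups compared, primary NTY replicates 2 and 3 summed (their library codes are alike) and leaving out each replicate. Library preparation of the microdissected samples used a capture kit for coding RNA per the labels. The fits were run on simulated data with large changes and a smaller spread between replicates than these data have. That checks the code and cannot show the power of the tests here. Levels, ratios and figures used Python 3.11.15, pandas 2.3.3, numpy 2.4.6 and matplotlib 3.10.9. The 3 genes most alike were taken, among genes that passed the filter, for each member that passed it and had a count in at least 6 of the 12 libraries, and 1 of them is not reported here. The members and lists were chosen with earlier results of these data known. All 8 members are named, and other genes only from their lists or as the genes most alike. Taf4b was not in the promoter table, and no promoter is printed for Figla, whose window lies within annotated transcripts.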

Additional observations from a re-analysis of the deposited data

How the results depend on the processing

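The number of the 8 genes called for NTY against sham was 0 at each stage under every alternative, from 0 to 0 when a replicate was left out, and it was 0 also between the stages and for how the NTY effect differed between them. DESeq2 called 1201, 693 and 29 of all genes for NTY in primordial follicles, primary follicles and MII oocytes, 1021 for the stages and 1216 for the difference, against 1, 0, 0, 0 and 1 with edgeR, and 0 members in each. With any count as the filter 3 genes passed for the stages and 11 for the difference, and the groups compared alone gave 6 for primordial follicles. For MII against microdissected oocytes from 4 to 5 members were called when a replicate was left out. Nobox, Sohlh2, Tbpl2 and Gtf2a1l passed in all 23 alternatives, and Sohlh1 in 14. Apart from Nobox, these genes entered the main fit through the set where they are higher. Their passes are therefore no support for a direction. RLE normalization made 80.6% of all calls higher in MII, against 71.0%.

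With limma on log2(TPM + 1) the estimate for NTY in primary follicles was -0.012 for Figla and -0.21 for Lhx8, and in MII oocytes -0.0065 for Gtf2a1l. With primary NTY replicates 2 and 3 summed, Nobox was at -0.012 for the stages. For MII against microdissected, Lhx8 was at 0.27 with RLE normalization and 0.27 with DESeq2, and Taf4b at 1.15, 1.15 and, with limma, 1.16. Leaving out a replicate, the estimates for NTY in primordial follicles ran from -1.32 to 0.80 for Nobox, from -1.45 to 0.18 for Lhx8 and from -4.35 to 2.06 for Taf4b. They turned positive for Nobox without sham replicate 2 and for Lhx8 and Taf4b without sham replicate 3. In primary follicles they ran from -0.055 to 1.73 for Figla (negative without NTY replicate 2) and from -0.73 to 3.85 for Taf4b (negative without NTY replicate 1), and in MII oocytes from -0.45 to 0.49 for Gtf2a1l (negative without NTY replicate 2). For the stages they ran from -0.050 to 1.01 for Nobox (negative without primordial sham replicate 1), from -1.33 to 0.59 for Figla (positive without primordial NTY replicate 1) and from -0.22 to 4.27 for Taf4b (negative without primary NTY replicate 1). For MII against microdissected they ran from -1.32 to 1.01 for Figla (negative without MII NTY replicate 1), from -0.56 to 0.84 for Taf4b (positive without primordial sham replicate 3 or primary NTY replicate 1) and from -6.01 to -3.34 for Sohlh1, whose call was lost without primordial NTY replicate 1, MII sham replicate 1 or 3, or any MII NTY replicate. The cause of these changes was not tested.

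The replicate block called 0 members for NTY and for the stages, and 5 for MII against microdissected, where Taf4b changed to 0.14. Of 15 pairs of same-numbered libraries, 0 deviated together with a correlation over 0.1. With 3 libraries in each group and a wide spread between them, this cannot show whether same-numbered samples were paired.

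The spread between microdissected replicates (common dispersion 3.59) limits these tests. Depth limits the low genes, since Sohlh1, Sohlh2, Tbpl2 and Gtf2a1l exceeded 3 counts in 7, 6, 2 and 1 of the 12 microdissected libraries, and Figla in 8 of 12 there and 3 of 6 for MII. The number of pairs with a high and a near-empty library (4, or 2 without primordial NTY replicate 3) and the correlations without that library were added after seeing the data.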

Other observations

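Of 6 partners of these factors (E proteins that pair with FIGLA, and factors used with members to make oocyte-like cells from stem cells), 1 was higher and 3 lower in MII against microdissected oocytes, with a median log2 fold change of -2.67 against 1.64 over all genes. The E proteins Tcf4 (-3.92, adjusted p = 0.000945 by edgeR) and Tcf12 (-6.97, adjusted p = 6.6e-05) were lower and Tcf3 (1.25, adjusted p = 0.303) did not pass. The median level of Tcf12 was 1.56 TPM in MII and 118 TPM in microdissected oocytes. The dynein light chain Dynll1 was lower by a log2 change of -8.03, and the coactivator Sub1 was higher by 3.70. These genes are also expressed in somatic cells, and the markers of granulosa and stroma summed to at least 779 and 1376 CPM in each microdissected library, against at most 188 and 2.91 CPM in MII. Their part in these values was not tested.

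Of 7 other oocyte regulators, 5 were higher and 2 lower (4 and 2 without primordial NTY replicate 3). In all genes tested 42.3% were higher and 17.2% lower. The homeobox genes Obox1, Obox2 and Obox5, whose near-identical family members can share reads, were higher by 13.90, 13.65 and 13.21, and their values are uncertain for that reason. Zfp57, a factor that guards imprinted methylation, was higher by 6.89 and Sall4 by 3.88 (adjusted p = 0.0435 by edgeR). Foxo3, which holds primordial follicles at rest, was lower at -3.29 and the RNA-binding protein gene Ybx2 at -7.09, with medians of 771 TPM in microdissected and 11.3 TPM in MII oocytes. For NTY against sham 0 genes of either list were called at any stage.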
